A study of Mus musculus with 8 samples.

Results

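The uncommitted nephron progenitors described here were 292 of the 6495 cells of fetal mouse kidney that carried the tag of 1 of 4 mice. They were chosen by the UMI counts of 6 genes, UMIs being the molecular identifiers that count captured mRNA molecules. A cell was kept when Six2, Cited1, Eya1, Crym and Spock2 together gave at least 8 UMIs and Wnt4 gave at most 2. Differences in these 6 genes, which the choice of cells fixes in part, are therefore given below as a description, although they stay in the tables over which p-values were adjusted. The rule read no other gene, but the cells that it admits also set the levels of the others.

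Nephron progenitors form a cap of mesenchyme around each tip of the branching ureteric bud. The transcription factor Six2 holds them in self-renewal, Cited1 marks those least advanced, and Wnt signals from the bud and from the cells themselves turn a share of them into pretubular aggregates that become epithelium and then all segments of the nephron from podocyte to distal tubule. TRIM28, also called KAP1, is a co-repressor that KRAB zinc-finger proteins bring to DNA, where it gathers the histone methyltransferase SETDB1 and HP1 proteins into silent chromatin.

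The kidneys came from 4 male embryos at embryonic day 17.5 according to the labels, while the methods of the study name a later day. In the 2 Trim28 Δ/Δ mice, both floxed Trim28 alleles (loxP sites in 2 introns) were to be deleted by an EGFP-cre fusion under the Six2 promoter, the transgene Tg(Six2-EGFP/cre)1Amc, so that deletion starts in the progenitors themselves and is inherited by the tubules and podocytes that they form. The 2 controls were Trim28 f/f, with the same floxed alleles, and the labels name no transgene for them. Carrying the transgene and losing Trim28 therefore cannot be told apart. Kidneys were dissociated with a cold-active protease, tagged with lipid-bound oligonucleotides, pooled and run as a single 3′ single-cell library. Genotypes were read from the names in the deposited list of tags, which say only ko or wt. The alleles written here for these names are those that the study gives. The tags that tie each cell to a mouse are shown whole.

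Trim28 Δ/Δ mouse 1, CMO305: cgcgatatggtcgga
Trim28 Δ/Δ mouse 2, CMO308: cggattccacatcat
Control mouse 3, CMO306: aagatgaggtctgtg
Control mouse 4, CMO307: aagctcgttggaaga

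The 4 mice gave 1168, 1289, 2490 and 1548 assigned cells, with median depths between 16622.5 and 17689.5 UMIs per cell. The progenitors among them held 223347, 434957, 1599898 and 3477996 UMIs in all, so values of the Trim28 Δ/Δ mice rest on far fewer molecules than those of the controls. Scrublet, a doublet caller, marked 11 of the 292 progenitors (3.77%), and these cells were kept. Mice served as replicates throughout, 2 against 2, and cells did not. The 6 libraries of newborn whole kidney were not analysed here.

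The label was checked against progenitor genes that the choice of cells did not use. Uncx, a homeobox gene, was detected in 70%, 84.2%, 93.9% and 95.03% of the progenitors of mice 1 to 4. Hoxd11, needed for metanephric growth, was detected in 60%, 89.5%, 79.3% and 85.1%, and Sall1, a zinc-finger factor of the cap mesenchyme, in 70%, 78.9%, 81.7% and 79.6%. Osr1, an early marker of the renal lineage, was found in 30%, 47.4%, 64.6% and 56.9% of cells. Gdnf, the ligand that draws out the ureteric bud, was found in 10% to 36.5% of cells. Itga8 was found in 50%, 57.9%, 67.1% and 74.0%, Hoxa11 in 50%, 36.8%, 43.9% and 64.1%, Meox1 in 30%, 15.8%, 42.7% and 51.4%, and Dpf3 in 10% to 31.7%. Of 16 such genes tested against cells of the same marker sum with more than 2 Wnt4 UMIs, 2 were higher in progenitors (0.167% of all genes were) and 8 lay below 0. Their detection therefore does not by itself tell uncommitted from induced cells. Endothelial and immune genes were near 0: the summed level of each list in CPM (UMIs per 1e6 UMIs of the summed cells) ran from 13.8 to 53.1 and from 4.48 to 48.0 in the progenitors, against at least 213 and 195 in the other cells of each mouse. Of the 9 stroma genes, 1 gave no UMI in any mouse, and the sum of the list was 89.6, 41.4, 243 and 92.6 CPM against 389, 298, 342 and 241 in the other cells, below them in each mouse. Its member Foxd1 went the other way in each mouse, at 58.2, 16.1, 25 and 31.9 CPM against 15.1, 13.0, 17.6 and 16.4. Meis1 did so in mice 3 and 4 only, at 56.3 and 41.1 CPM against 22.4 and 22.2. In mouse 3, 71 of the 84 UMIs of the collagen gene Col3a1 lay in a single cell. The ureteric list summed to 1433, 786, 461 and 310 CPM against 1249, 1426, 1092 and 1375 in the other cells, with mouse 1 above its own other cells, and to 322, 249, 324 and 234 CPM without the tubule-marker cells defined next. The part of either list in the results was not tested.

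A group of the chosen cells went against the label. At least 10 UMIs of a loop and distal tubule list (Slc12a1, Umod, Slc12a3, Tmem52b) or of a proximal tubule list (Slc34a1, Lrp2, Cubn, Fbp1, Spp2, Gatm, Slc27a2) were found in 5 of 10, 7 of 19, 8 of 82 and 7 of 181 cells. These tubule-marker cells were 50%, 36.8%, 9.76% and 3.87% of the progenitors (exact 95% binomial intervals 18.7 to 81.3%, 16.3 to 61.6%, 4.31 to 18.3% and 1.57 to 7.81%, for counting error only). They ran from 12918 to 104284 UMIs in a cell, and held 66.6%, 61.2%, 14.96% and 8.25% of the progenitor UMIs of the 4 mice. They sat close to the limit of the marker sum, with medians of 9, 10, 12 and 9 UMIs against 20, 14, 27 and 27 in the remaining cells, and Six2 gave a UMI in 1, 2, 4 and 3 of them. In the Trim28 Δ/Δ mice, 4 and 6 of these cells met the loop and distal limit and 1 and 2 the proximal limit.

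**Figure D1:**
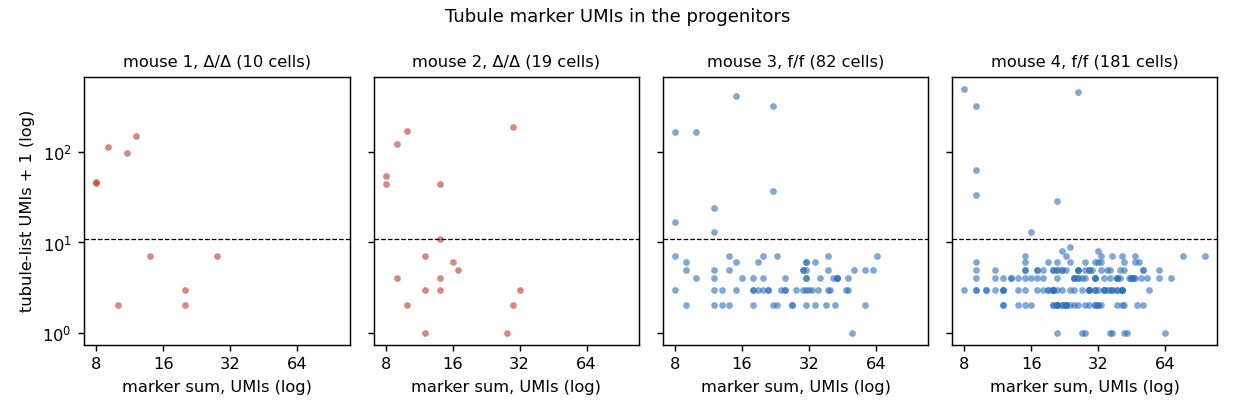
Each point is a progenitor, in 1 panel per mouse, with the summed UMIs of the 5 marker genes on the x axis and the larger of the loop and proximal list UMIs plus 1 on the y axis, both logarithmic, and the dashed line at 10 UMIs. Cells above the line make up 5 of 10 and 7 of 19 progenitors of the Trim28 Δ/Δ mice and 8 of 82 and 7 of 181 of the controls.

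The main comparisons are therefore given with all 292 cells and again for the 265 cells left without the tubule-marker cells, namely 5 and 12 in the Trim28 Δ/Δ mice and 74 and 174 in the controls, with 74516, 168984, 1360625 and 3191021 UMIs. The summed level of the loop and distal list went in this way from 1374.5, 1101.3, 430.0 and 302.8 to 53.7, 47.3, 61.7 and 49.8 CPM, and that of the proximal list from 805.9, 494.3, 493.8 and 291.5 to 215, 148, 148 and 144. What the remaining tubule signal contributes was not tested. The second set was defined after the data had been seen and holds fewer UMIs.

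Progenitors were a smaller share of the cells in the Trim28 Δ/Δ kidneys. They made up 0.856% of mouse 1 (exact 95% interval 0.411 to 1.57%) and 1.47% of mouse 2 (0.890 to 2.29%), against 3.29% of mouse 3 (2.63 to 4.07%) and 11.7% of mouse 4 (10.1 to 13.4%). The groups did not overlap, and the controls differed from each other by more than mouse 3 differed from mouse 2. Without the tubule-marker cells the shares were 0.428%, 0.931%, 2.97% and 11.2%. The means were 1.17% ± 0.437 for Trim28 Δ/Δ and 7.49% ± 5.94 for controls (SD, n = 2 each). No test was made, because the share is set by the genes of the rule, whose levels are given next, and the intervals cover counting error only. With Six2 and Cited1 left out of the marker sum and its limit lowered to 4 UMIs, the shares became 1.54%, 2.33%, 3.70% and 12.2%.

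**Figure D2:**
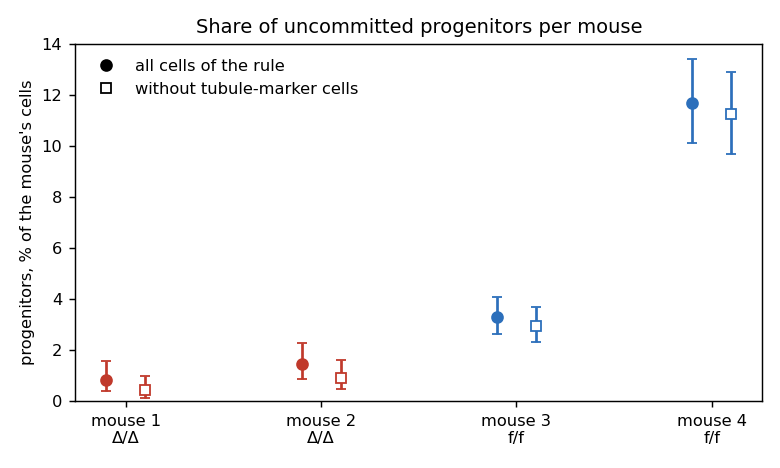
Percent of the assigned cells of each mouse that were uncommitted progenitors, with exact 95% binomial intervals as bars, for all cells of the rule (filled) and without tubule-marker cells (open). Both Trim28 Δ/Δ mice lie below 1.5% and both controls above 2.9%.

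Of the genes that chose the cells, Cited1, a transcriptional co-activator of the least advanced progenitors, was low in the Trim28 Δ/Δ cells under either set. It reached 151, 56.0, 665 and 670 CPM (for single genes, after TMM scaling of the summed UMIs) in mice 1 to 4, a log2 difference of -2.80 ± 0.33 (SE). Without tubule-marker cells it was 187, 85.7, 738 and 711 CPM, a log2 difference of -2.54 ± 0.31, and it gave a UMI in 4 of 5, 4 of 12, 66 of 74 and 164 of 174 cells. Six2 moved differently. It stood at 94.7, 69.5, 229 and 216 CPM in all cells of the rule but at 249, 165, 258 and 232 CPM without the tubule-marker cells, where mouse 1 lay between the controls, and its log2 difference went from -1.47 to -0.30. Eya1, the phosphatase partner of Six2, went from -0.95 to 0.24. Wnt4, held at 2 UMIs or fewer, was at 17.2, 24.7, 16.2 and 21.1 CPM in all cells of the rule. Crym and Spock2 differed by -0.31 and -0.33 in all cells and by 0.96 and -0.19 without the tubule-marker cells.

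Trim28 itself (chr7:12999114-13031035 in GENCODE vM21, GRCm38) was lower in the Trim28 Δ/Δ progenitors. The 3′ counts fall outside the deleted exons, so they report the transcript that is left and not the deletion. A Trim28 UMI was found in 3 of 10 and 7 of 19 cells of the Trim28 Δ/Δ mice and in 68 of 82 and 159 of 181 cells of the controls, and the level was 17.2, 26.9, 117 and 154 CPM. The groups did not overlap, with a log2 difference of -2.54 ± 0.37 (adjusted p = 0.00167, by the quasi-likelihood test of edgeR, adjusted by Benjamini-Hochberg over all genes tested, as are all adjusted p-values below). Such a lack of overlap was found for 4542 of the 8950 genes tested. Without the tubule-marker cells, 1 of 5, 4 of 12, 61 of 74 and 154 of 174 cells had a UMI, and the log2 difference was -1.97 ± 0.46 (adjusted p = 0.18). The other cells of the same mice gave 47.5, 51.3, 103 and 122 CPM, and free RNA in near-empty droplets gave 115. The part of free RNA in the Trim28 Δ/Δ UMIs was not tested. Among 14 partners of TRIM28 in silencing, including Setdb1, the HP1 genes Cbx1, Cbx3 and Cbx5 and the remodeller Chd4, none passed the test in either set of cells. Over all genes 6.73% and then 0.102% passed. With shares this low, the lack of a call does not show that the partners were unchanged. Over the list of 15, Trim28 included, the median log2 difference was -0.38 and then -0.01, with 13 and then 8 below 0.

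The comparison of Trim28 Δ/Δ with control progenitors asked which genes differ in the cells where deletion begins. In all cells of the rule, 602 of 8950 genes tested passed an adjusted p of 0.05 (6.73%), of which 324 were higher (3.62%) and 278 lower (3.11%) in Trim28 Δ/Δ. Without the tubule-marker cells 8 of 7874 passed (0.102%), namely Six3, Sat1, Basp1 and Pcdh7 higher (0.0508%) and Cited1, Ube2c, Cntrl and Ttc28 lower (0.0508%), and 517 had an unadjusted p under 0.05. Cited1 helped to choose the cells, so its place among the 8 is no result. Of the 602 genes, 442 could be tested in the second set. There 272 of 276 lower genes but 120 of 166 higher genes had a difference of the same sign. The second set is part of the first, in which these genes were called, so such agreement is in part built in. The median over all genes tested was -0.03 and then -0.05, so single differences are read close to 0.

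Six3 set the genotypes apart more than any other gene that passed in both sets. It encodes a homeobox factor of the developing eye and forebrain, and lies beside Six2: in GENCODE vM21 (GRCm38) Six3 spans chr17:85613608-85629302 on the plus strand and Six2 chr17:85684277-85688274 on the minus strand, with 54974 bases between them. Their promoters are shown here from RefSeq (GRCm38.p6, 300 bases, from 250 before to 50 after the start, on the strand of the gene). Each CG dinucleotide, the target of DNA methylation, is in capitals. Six2 helped to choose the cells, so its level is not set against that of Six3.

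Six3, chr17:85620584-85620883, plus strand: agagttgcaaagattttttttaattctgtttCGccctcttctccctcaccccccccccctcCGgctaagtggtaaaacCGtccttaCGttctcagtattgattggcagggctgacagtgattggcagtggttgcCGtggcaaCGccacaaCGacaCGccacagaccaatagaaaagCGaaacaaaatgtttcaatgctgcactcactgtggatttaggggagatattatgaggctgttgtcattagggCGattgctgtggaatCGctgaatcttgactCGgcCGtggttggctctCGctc
Six2, chr17:85688205-85688504, minus strand: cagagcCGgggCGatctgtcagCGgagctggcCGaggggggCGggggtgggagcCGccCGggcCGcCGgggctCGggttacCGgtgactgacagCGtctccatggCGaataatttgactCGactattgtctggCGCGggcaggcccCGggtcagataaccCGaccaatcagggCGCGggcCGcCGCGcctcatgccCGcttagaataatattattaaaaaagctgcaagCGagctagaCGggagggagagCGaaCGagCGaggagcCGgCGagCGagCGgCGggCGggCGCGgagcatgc

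The Six3 window holds 14 CG dinucleotides, a number reached by 36.3% of the 32851 promoters of the same length in the table, and the Six2 window 37, reached by 5.58%. This describes the sequences and says nothing of their methylation, which was not measured.

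Six3 gave 60 and 74 UMIs in the progenitors of mice 1 and 2, and 0 and 2 in those of mice 3 and 4. The levels were 258, 166, 0 and 0.621 CPM, with no overlap (log2 difference 8.66 ± 0.54, adjusted p = 9.05e-06). As a ratio of the pooled counts, Six3 was 517-fold higher in Trim28 Δ/Δ cells, with a counting interval from 140 to 4311. This interval covers counting error only and not the spread between mice. Carrying the transgene under the Six2 promoter and losing Trim28 cannot be told apart for Six3 either. The transcript was spread over the cells that kept progenitor markers. Without tubule-marker cells it was found in 5 of 5 and 12 of 12 Trim28 Δ/Δ cells, in 0 of 74 and in 2 of 174 control cells, and its level was 711, 404, 0 and 0.678 CPM (log2 difference 9.85 ± 0.51, adjusted p = 2.96e-09). It was found in 1 of 5 and 1 of 7 tubule-marker cells of the Trim28 Δ/Δ mice. In the other cells of the 4 mice, Six3 stood at 8.28, 7.47, 0.602 and 0.72 CPM, and in free RNA at 7.81. The antisense gene Six3os1 overlaps the first part of the GENCODE span of Six3, upstream of the RefSeq start used for the promoter above, and gave 2, 3, 0 and 0 UMIs.

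**Figure D3:**
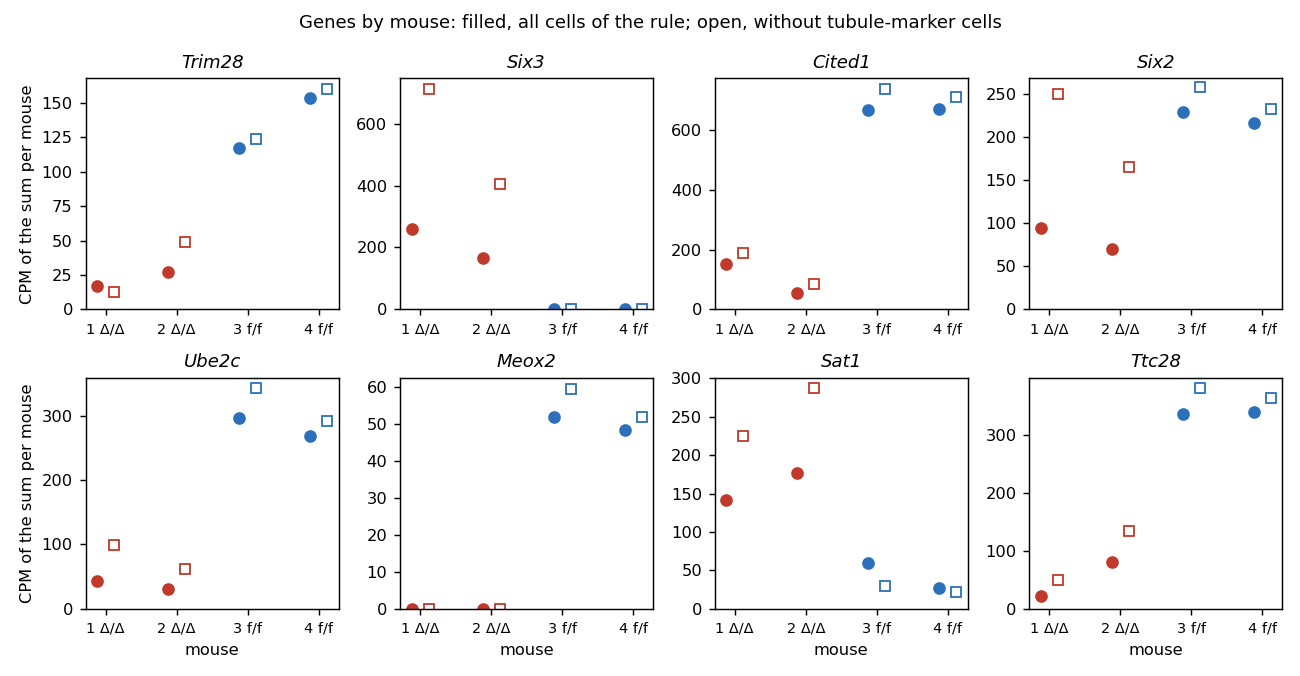
CPM (y axis, linear from 0, TMM-scaled) of 8 genes in the progenitors of each mouse, for all cells of the rule (filled circles) and without tubule-marker cells (open squares), Trim28 Δ/Δ mice in red and controls in blue. Six3 is at 258 and 166 in the Trim28 Δ/Δ mice against 0 and 0.621 in the controls, and Six2 of mouse 1 lies between the controls when the tubule-marker cells are left out.

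Of the other genes called without the tubule-marker cells, Sat1, which starts polyamine breakdown, stood at 224, 288, 29.3 and 22.0 CPM (log2 difference 3.38 ± 0.33, adjusted p = 4.33e-05). Its UMIs came from 2 of 5 and 8 of 12 Trim28 Δ/Δ cells, and a single cell of mouse 2 held 39 of the 47 UMIs of that mouse, so the level of mouse 2 rests largely on that cell. Sat1 had also passed in all cells of the rule (1.93 ± 0.37, adjusted p = 0.00853). Basp1, a membrane-bound protein that also acts as a co-repressor with WT1, stood at 162, 196, 41.2 and 58.0 CPM (1.85 ± 0.34, adjusted p = 0.0442), and the protocadherin Pcdh7 at 49.9, 61.2, 7.13 and 5.42 CPM (3.21 ± 0.60, adjusted p = 0.0465). Neither passed in all cells of the rule, at adjusted p of 0.138 and 0.0619. Ttc28 was lower, at 49.9, 135, 382 and 364 CPM (-1.85 ± 0.33, adjusted p = 0.0402). In this set 49.9 CPM stands for 4 UMIs in mouse 1 and 61.2 CPM for 10 UMIs in mouse 2. Pcdh7 in both mice and Ttc28 in mouse 1 therefore rest on few molecules. No UMI of the centriolar gene Cntrl was found in the 17 Trim28 Δ/Δ cells left, against 357 UMIs in the controls, a level at least 6.37-fold lower when 3 counts over the group are taken as the floor (adjusted p = 0.0218).

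Some genes of the progenitor state were lower in all Trim28 Δ/Δ cells of the rule, and none passed without the tubule-marker cells. Of 22 tested progenitor genes that did not choose the cells, 8 were lower, where 3.11% of all genes were, and none higher, with a median log2 difference of -1.22. They were Wt1, Pax2, Uncx, Traf1, Ncam1, Kif26b, Meox1 and Itga8. Wt1, a zinc-finger factor needed for progenitor survival and epithelial transition, stood at 43.1, 51.5, 204 and 213 CPM (-2.11 ± 0.28, adjusted p = 0.00102), and Pax2, the paired-box regulator of the lineage, at 103, 119, 274 and 300.1 CPM (-1.36 ± 0.23, adjusted p = 0.00479). The groups do not overlap for either gene, as for 4542 of all 8950 genes tested. Without tubule-marker cells the 22 had a median of -0.50, 17 were below 0 and none passed, with Wt1 at 112, 91.8, 229 and 224 CPM (-1.19 ± 0.31, adjusted p = 0.257) and Pax2 at 125, 141, 307 and 314 CPM (-1.21 ± 0.28, adjusted p = 0.18). The calls of Meox1 and Kif26b were lost without mouse 2, and that of Itga8 without mouse 1, mouse 2 or mouse 4.

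Meox2, a homeobox gene of the paraxial mesoderm and related to Meox1, gave no UMI in any of the 29 Trim28 Δ/Δ progenitors, and was found in 48 of 82 and 96 of 181 control progenitors (0, 0, 51.9 and 48.1 CPM). This is at least 10.0-fold lower with 3 counts as the floor (adjusted p = 0.00146), and at least 4.07-fold lower without the tubule-marker cells (adjusted p = 0.085). In the other cells of the mice it was at 0.949, 1.42, 2.52 and 2.84 CPM. Meox2 was picked out after its values were seen.

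Many genes of cell division were lower. Of 51 tested G2/M phase genes, 31 were lower, where 3.11% of all genes were, and none higher, with a median log2 difference of -2.08 and all 51 below 0. Ube2c, the ubiquitin-conjugating enzyme of the anaphase-promoting complex, stood at 43.1, 31.4, 297 and 269 CPM (-2.98 ± 0.29, adjusted p = 0.000252), and Mki67, the proliferation marker Ki-67, at 34.4, 22.4, 262 and 199 CPM (-3.09 ± 0.34, adjusted p = 0.0004). The genotypes do not overlap for either gene, as for 4542 of all 8950 genes tested. Top2a, the topoisomerase that untangles chromosomes, stood at 151, 51.5, 466 and 377 CPM (-2.17 ± 0.36, adjusted p = 0.00386), and at 399, 110, 520 and 409 CPM without the tubule-marker cells, where mouse 1 came close to mouse 4, with 24 of its 32 UMIs in a single cell. Leaving out mouse 2 cut the count of 31 to 18. The kinase Aurkb gave 0 UMIs in the Trim28 Δ/Δ mice and 174 in the controls, at least 7.52-fold lower. Without tubule-marker cells 48 of 51 remained below 0, with a median of -1.24. Ube2c alone passed, where 0.0508% of all genes were lower, at 99.7, 61.2, 344 and 292 CPM (-2.08 ± 0.34, adjusted p = 0.0181). Mki67 then had a log2 difference of -2.10 ± 0.40 (adjusted p = 0.053). Of 40 tested S phase genes, 3 were lower (Atad2, Hells and Cdca7), where 3.11% of all genes were, with a median of -1.08. Without the tubule-marker cells none passed and the median was -0.00. With mouse 3 left out 8 of the S phase genes were lower, with mouse 1 left out 5 and with mouse 4 left out 2, among which Hells and Cdca7 no longer were.

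**Figure D4:**
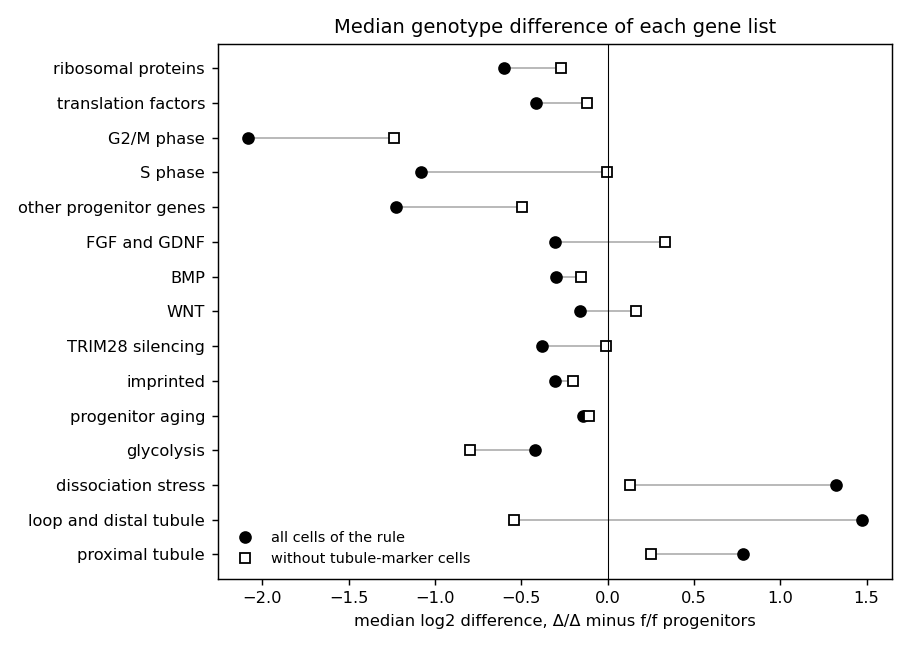
Median log2 difference, Trim28 Δ/Δ minus control progenitors, over the tested genes of 15 lists (x axis), for all cells of the rule (filled circles) and without tubule-marker cells (open squares). The G2/M list lies at -2.08 and -1.24, the S phase list at -1.08 and -0.00, and the loop and distal tubule list at 1.47 and -0.54.

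G2/M transcripts were also counted per cell. After thinning each cell to 6800 UMIs, 90%, 94.7%, 100% and 99.4% of progenitors had at least 5 UMIs of the G2/M list, a difference of -7.36 percentage points (exact two-sided permutation p = 0.333, the smallest that 2 against 2 mice allow). Nearly all cells passed this limit, and the list holds genes such as Hmgb2 that were detected in at least 96.7% of progenitors of every mouse, so passing it does not mark a dividing cell. Without tubule-marker cells the shares were 100%, 91.7%, 100% and 99.4%, and the groups overlapped (exact permutation p = 1). At 20 UMIs, a limit added after the values were seen, the shares were 30%, 15.8%, 41.5% and 38.7%, and without tubule-marker cells 40%, 25%, 43.2% and 40.2% (exact permutation p = 0.333 for each), where mouse 1 lay just under mouse 4. The median progenitor had 13, 10, 17 and 14 thinned G2/M UMIs and 5, 8, 8 and 11 of the S phase list.

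Ribosomal protein genes were lower as a block. Of 80 tested, 77 were lower and none higher, with a median log2 difference of -0.60, and their UMIs were 244293, 242750, 330471 and 337844 CPM without scaling. Over all genes 3.11% were lower, the share to set beside this count and that of the translation factors below. Among the 12 lower genes with the smallest p, 9 encode ribosomal proteins, for example Rps26 at 3750, 3715, 6561 and 6418 CPM (-0.80 ± 0.08, adjusted p = 0.000246) and Rpl12 at 2716, 2765, 4872 and 5152 CPM (-0.87 ± 0.09, adjusted p = 0.000264). The nucleolar protein Npm1 was at 1808, 1678, 3560 and 3304 CPM (-0.98 ± 0.10, adjusted p = 0.00034). Of 17 translation factors 4 were lower (Npm1, Eef1a1, Eef1b2 and Tpt1, the last not without mouse 1), and none without the tubule-marker cells. Without tubule-marker cells all 80 ribosomal genes were again below 0, with a median of -0.27, but none passed, and their summed level was 303613, 330126, 351683 and 350307 CPM. The other cells of the mice, in which 221685, 235496, 258598 and 251072 CPM were ribosomal, were lower in both Trim28 Δ/Δ mice as well, and the tubule-marker cells hold more of the Trim28 Δ/Δ progenitor UMIs than of the control ones. The median mitochondrial share of the progenitors was 4.12% and 4.43% in the Trim28 Δ/Δ mice against 2.85% and 3.58% in the controls, without overlap, and the nuclear RNA Malat1 stood at 20626, 43590, 24219 and 19842 CPM, highest in mouse 2. Without the tubule-marker cells Malat1 was at 11706, 18761, 21185 and 17958 CPM, with mouse 2 between the controls. The part of any of these in the difference was not tested.

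Signalling genes were read as FGF and GDNF, BMP and WNT lists against the 6.73% called over all genes. In the FGF and GDNF list 2 of 12 were lower, the receptor Fgfr1 (-1.33 ± 0.28, adjusted p = 0.014) and the feedback inhibitor Il17rd (-1.75 ± 0.46, adjusted p = 0.0435), and the median of the list went from -0.30 to 0.33 without the tubule-marker cells, when none passed. The call of Il17rd was lost without mouse 1, mouse 2 or mouse 4. None of 13 BMP genes passed. Of 12 tested WNT genes, the secreted antagonist Sfrp1 was higher and the repressor Tcf7l1 lower. Sfrp1 stood at 474, 385, 43.8 and 50.6 CPM (3.17 ± 0.24, adjusted p = 5.45e-05), but 109 of its 110 UMIs in mouse 1 and 170 of 172 in mouse 2 came from the tubule-marker cells. Without them it was at 12.5, 12.2, 15.1 and 23.7 CPM. Tcf7l1 stood at 21.5, 17.9, 90.3 and 68.7 CPM (-2.03 ± 0.40, adjusted p = 0.00991), and at -1.80 ± 0.57 without the tubule-marker cells (adjusted p = 0.448).

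Of 25 tested imprinted genes 2 were higher and 2 lower, where 3.62% and 3.11% of all genes were. The non-coding RNAs Meg3 and Rian, both from the maternal allele of the Dlk1-Dio3 region, were higher, Meg3 at 551, 432, 21.6 and 17.1 CPM (4.68 ± 0.27, adjusted p = 6.66e-06). As with Sfrp1, 127 of 128 and 191 of 193 Meg3 UMIs of the Trim28 Δ/Δ mice lay in tubule-marker cells, while the tubule-marker cells of the controls gave 0 and 9. In the cells left, Meg3 was at 12.5, 12.2, 25.4 and 15.6 CPM. Mest, expressed from the paternal allele in mesenchyme, was lower, at 81.8, 197, 653 and 790 CPM (-2.30 ± 0.30, adjusted p = 0.000943), and at 212, 379, 754 and 842 CPM without the tubule-marker cells (-1.37 ± 0.26, adjusted p = 0.053). Grb10, which dampens growth factor signals, had a log2 difference of -1.04 ± 0.21 (adjusted p = 0.0116) and then -0.33.

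Meg3, Rian, Six3, Sfrp1, Slc12a1, Atp1b1, Irx1, Epcam, Pappa2, Wfdc15b, Etnk1 and Aard were the 12 higher genes with the smallest p. Slc12a1, the salt transporter of the loop of Henle, stood at 1072, 930, 313 and 270 CPM (1.78 ± 0.17, adjusted p = 0.000252). It is 1 of the genes that define the tubule-marker cells, so its level without them, 0, 18.4, 30.1 and 29.2 CPM, is set by leaving them out. Atp1b1, a subunit of the sodium pump, stood at 1838, 1369, 432 and 354 CPM (2.03) and at 262, 147, 115 and 119 CPM without the tubule-marker cells, where both Trim28 Δ/Δ mice were still above the controls (0.72, adjusted p = 0.698). None of these other than Six3 passed without the tubule-marker cells, and Aard, Irx1, Pappa2 and Rian could then no longer be tested. Of 12 tested genes of the induced list, Cdh6, Emx2 and Papss2 were higher (3.62% of all genes were) and Fgf8 lower (3.11% of all genes), with Fgf8, a survival signal of the pretubular aggregate, at 1 and 0 UMIs against 45 and 132. Of these 4, the call of Cdh6 was lost without mouse 2 or mouse 3, that of Papss2 without mouse 2, mouse 3 or mouse 4 and that of Fgf8 without mouse 4. In the Trim28 Δ/Δ mice the tubule-marker cells held 12 of 12 and 33 of 43 Cdh6 UMIs, 19 of 20 and 24 of 26 Emx2 UMIs and 5 of 6 and 14 of 16 Papss2 UMIs. Without them none of the induced list passed, with Cdh6 at 0.88, Emx2 at -0.13 and Fgf8 at -3.22 (adjusted p = 0.448). Immediate early genes that rise on dissociation were higher as well, namely Fos, Jun and Ier3 of 11 tested, against the same 3.62% (median 1.33, and 0.13 without the tubule-marker cells, when none passed). Leaving out mouse 1 raised that count to 6, and leaving out mouse 2 cut it to 2 with Jun lost. Of the lists that mark other cells, Slc27a2 (proximal), Umod and Slc12a1 (loop) and Wfdc2 (ureteric) were higher and Meis1 (stroma) and Hbb-bs (erythroid) lower. Slc27a2 was lost without mouse 1, where a single cell held 47 of 50 UMIs, Umod without mouse 2, where a single cell held 40 of 43, and Hbb-bs without mouse 4. None of these 6 genes passed without the tubule-marker cells, where Slc27a2 and Umod could not be tested and Wfdc2, Meis1 and Hbb-bs differed by -0.35, -3.75 and -1.11. Beside these, erythroid genes summed to 761, 724, 873 and 2437 CPM, the most in mouse 4, where a single cell held 2135 of the 4756 Hbb-bs UMIs. None of 12 tested genes tied to progenitor age (Hmga2, Igf1r and H19 among them), 17 glycolysis genes, 10 p53 targets or 7 interferon genes passed edgeR's quasi-likelihood test. Over all genes 6.73% did. Nor did any of the 12, 16, 8 and 5 tested without the tubule-marker cells, where 0.102% of all genes did. The glycolysis genes had a median of -0.42 with 15 of 17 below 0, and then -0.795 with 15 of 16 below 0. In that second set their summed level was 3758, 3793, 7004 and 3828 CPM, highest in mouse 3.

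The cells most like the progenitors were 109 cells with the same marker sum but more than 2 Wnt4 UMIs, 7, 12, 22 and 68 in the 4 mice. Their median depth was 29243, 16544, 18304 and 24154.5 UMIs per cell, against 16460, 15707, 18179.5 and 17386 in the progenitors. The Wnt4 limit was not scaled to depth, and the part of depth in the differences below was not tested. Wnt4 is the signal of the induced state, and the comparison, with the mouse as a block, asked what else parts progenitors from induced cells. In all cells of the rule 19 of 5979 genes passed (0.318%), 10 higher in progenitors (0.167%) and 9 lower (0.151%). Among the 10 were tubule genes such as Slc12a1, Klk1, Defb1 and Spp1, carried by the tubule-marker cells, of which the Wnt4-positive cells had 0, 0, 1 and 6. Without tubule-marker cells on either side 185 of 4774 genes passed (3.88%), 100 higher (2.09%) and 85 lower (1.78%). The count of 19 became 48, 5, 0 and 72 when mouse 1, 2, 3 or 4 was left out, and no mouse was left out of the comparison that gave 185.

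Without the tubule-marker cells, Traf1, an adaptor of receptor signalling, stood at 28.3, 46.4, 126 and 86.5 CPM in progenitors and at 13.1, 11.8, 33.8 and 16.5 CPM in Wnt4-positive cells, higher in 4 of 4 mice (log2 difference 2.15 ± 0.23, adjusted p = 0.000122). Robo2, the receptor that limits the field of Gdnf, was at 283, 278, 340 and 347 against 52.2, 153, 127 and 118 CPM (1.45 ± 0.17, adjusted p = 0.000122). Both passed with the tubule-marker cells as well, at adjusted p = 0.0472 for each, though there Traf1 no longer passed without mouse 2 and Robo2 without mouse 3 or mouse 4. Mest was at 241, 411, 816 and 896 CPM in progenitors against 189, 185, 216 and 245 (1.59 ± 0.18, adjusted p = 0.000122). The difference of that gap between genotypes was a log2 value of -0.99 ± 0.30 and did not pass (adjusted p = 0.368), whereas in all cells of the rule it did (-2.08, adjusted p = 0.0322). Tpm2 was higher by 1.70 ± 0.17, and among genes chosen after their values were seen Gas1 by 1.03 ± 0.13, the Notch target Hes1 by 1.16 ± 0.16 and Tgfbi by 1.29 ± 0.14 (all with adjusted p below 0.05). Six3, in the same comparison, was at 807, 437, 0 and 0.721 CPM in progenitors and at 281, 267, 0 and 0 in Wnt4-positive cells, where 5 of 7 and 12 of 12 Trim28 Δ/Δ cells and none of the control cells had a UMI.

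Genes of induction and of division had lower values in the progenitors in both sets of cells, but the calls differed. In all cells of the rule the 9 tested induced genes had a median of -0.83, 8 were below 0, and only Lhx1, a LIM homeobox factor of the renal vesicle, passed (-2.57, adjusted p = 0.0178). Without tubule-marker cells 5 of 7 tested induced genes other than Wnt4 were lower, where 1.78% of all genes were: Ccnd1, Cdh6, Jag1, Pax8 and Sfrp2. With all cells of the rule their adjusted p-values were 0.202, 0.456, 0.174, 0.528 and 0.319. Ccnd1, cyclin D1, stood at 85.0, 59.7, 104 and 87.3 CPM in progenitors against 320, 74.6, 309 and 455 CPM (-1.93 ± 0.20, adjusted p = 0.000122), and Jag1, the Notch ligand, at 0, 6.63, 20.6 and 11.9 against 58.8, 31.4, 44.2 and 40.5 CPM (-1.61 ± 0.28, adjusted p = 0.00446). The groups of Jag1 values did not overlap. Scube3 (-2.17 ± 0.27, adjusted p = 0.000232) and the guidance ligand Slit2 (-1.52 ± 0.22, adjusted p = 0.000773) were lower too, and both had passed with the tubule-marker cells included, but not when mouse 2 or mouse 3 was left out, nor for Slit2 mouse 4. Of 48 tested G2/M genes 22 were lower, against the same 1.78%, and none higher, with a median of -0.77. In all cells of the rule none of 50 passed by edgeR although all 50 were below 0, with a median of -1.14. Of 80 ribosomal protein genes 17 were higher and none lower, with a median of 0.23, against none and a median of 0.01 in all cells of the rule. Of all genes tested in this comparison without the tubule-marker cells 2.09% were higher, and their median was -0.00.

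**Figure D5:**
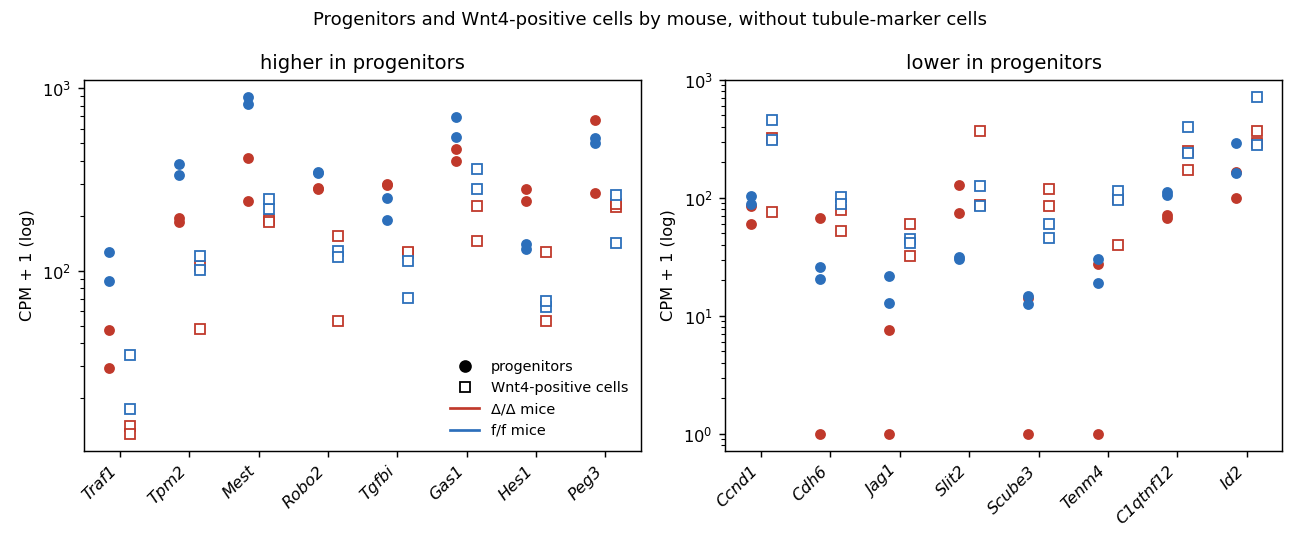
CPM plus 1 (y axis, logarithmic) of 16 genes in progenitors (filled circles) and Wnt4-positive cells (open squares) of each mouse without tubule-marker cells, Trim28 Δ/Δ in red and controls in blue. Traf1 and Robo2 are higher and Jag1 and Scube3 lower in the progenitors of each of the 4 mice.

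Whether the genotype difference itself differed between progenitors and Wnt4-positive cells was tested as an interaction. In all cells of the rule 64 of 7230 genes passed (0.885%) and without tubule-marker cells 13 of 5909 (0.22%). The count changes with the mice, as 249, 436, 106 and 62 genes passed in all cells of the rule when mouse 1, 2, 3 or 4 was left out. Ube2c, Mki67 and Cenpf passed in both sets, but with a marker sum of 5 the value of Mki67 was 0.23 and did not pass (adjusted p = 0.716). In the cells left without tubule-marker cells, Ube2c gave 8, 10, 434 and 861 UMIs in progenitors and, in Wnt4-positive cells of all kinds, 134, 108, 240 and 824. Its genotype difference was lower in progenitors than in Wnt4-positive cells by a log2 value of -2.10 ± 0.33 (adjusted p = 0.00353), that of Mki67 by -1.84 ± 0.38 (adjusted p = 0.042) and that of Cenpf by -1.54 ± 0.33 (adjusted p = 0.042). Sat1 went the other way (3.601 ± 0.58, adjusted p = 0.0037), with 18, 47, 37 and 65 UMIs in progenitors, 39 of the 47 in the same single cell, and 2, 7, 26 and 55 in Wnt4-positive cells. The collecting duct gene Aqp2 also passed, but 235 of its UMIs lay in the 12 Wnt4-positive cells of mouse 2 against 3, 36 and 31 in those of the other mice.

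At the limits of the choice, the 10 cells with a marker sum of 8 (2, 2, 4 and 2 in the 4 mice) had a median of 22.5 UMIs of the other progenitor genes, and 7 of them were tubule-marker cells. The 11 cells just outside, at a sum of 7, had a median of 24, and 5 of them were tubule-marker cells. The 20 members with 2 Wnt4 UMIs had a median of 43.5 UMIs of the other progenitor genes and 8.5 of the induced list, and the 18 cells with 3 Wnt4 UMIs had 39.5 and 10. Over the whole class that median was 21, 30, 46.5 and 46 UMIs in mice 1 to 4, and 60%, 57.9%, 76.8% and 69.1% of the progenitors had no Wnt4 UMI.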

How the data were processed

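The authors deposited a matrix of UMI counts with 3921239 barcodes, 32285 genes and 12 tags, not filtered for cells. The submitters' processing notes name Cell Ranger 6.0.0 and Seurat 4.0, and the build is given as mm10 (GRCm38). Kept were barcodes with at least 6890 UMIs, 200 genes and at most 10% mitochondrial UMIs (19273), with a top tag of at least 50 counts and 80% of the counts of 8 tags (10098) that the deposited list names (6495). Counts were summed per mouse and class and tested in R 4.3.3 with edgeR 4.0.16 (filterByExpr, TMM, glmQLFit, Benjamini-Hochberg, threshold 0.05), DESeq2 1.42.0 being an alternative, and scripts were tested on simulated data. Cells were read with scanpy 1.11.5. Named genes were Trim28, the genes of the rule, the 12 higher and 12 lower called genes with the smallest p and no overlap between genotypes (19 predicted gene models, called without such overlap, only counted), called and most abundant list members, 8 class genes per direction by fold, and up to 10 interaction genes. Others are said to be chosen later. Members and lists were chosen with earlier results of these data known. Some items are not reported here.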

Additional observations from a re-analysis of the deposited data

Results flagged for a closer look

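The genotype difference differed between progenitors and Wnt4-positive cells for 64 genes in all cells of the rule, by the interaction test of edgeR. The 10 with the smallest p had log2 differences between the 2 classes of 4.71 for Sfrp1, -3.12 for Ube2c, 3.83 for Ttc36, -2.98 for Mki67, -2.85 for Cenpf, 4.19 for Mep1a, -2.26 for Top2a, -2.91 for Nusap1, 3.81 for Ly6a and 5.74 for Cldn10. The positive ones are genes of which the tubule-marker cells hold most UMIs in the Trim28 Δ/Δ mice: without these cells the values were 0.86 for Sfrp1, 0.87 for Ttc36, 1.48 for Mep1a and 0.56 for Ly6a, none of which passed, and Cldn10 could not be tested. Of the 5 genes of division among the 10, Ube2c, Mki67 and Cenpf still passed, and Top2a and Nusap1 stood at -0.96 and -1.42 with an adjusted p of 0.368 each.

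Outside the cells used, 437 barcodes that met the marker rule carried a single tag that the deposited list does not name, against 292 with a listed tag, and 615 more had no single tag. No mouse or genotype is known for them here and they entered no comparison.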

How the results depend on the processing

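The genotype count of 602 genes became 326 with DESeq2, 197 with a rule of lower limits applied after thinning, 319 with a tag share of 90%, 1007 without the filter on low counts, 3 with a marker sum of 12, 1164 with Six2 and Cited1 left out of the sum, 0 with 10 cells per mouse (edgeR, 168 with an unadjusted p under 0.05), 82 with Wnt4 at 0 and 8 without tubule-marker cells. After thinning the marker sum had a limit of 4 UMIs and Wnt4 a lower limit than in the main rule. The sum without Six2 and Cited1 also had a limit of 4 UMIs. Leaving out a mouse gave 584 to 625, of which 393 to 471 were among the 602. In these fits the lone mouse of a genotype is assumed to vary like the 2 mice of the other. The class count of 19 became, in the same order of the settings that apply, 63, 38, 59, 404, 4, 4 and 185, and also 178 with a marker sum of 5 and 50 without Scrublet doublets, with 0 to 72 when a mouse was left out. The interaction count of 64 became 30, 34, 24, 281, 0, 157 and 13, and also 127 and 11, with 62 to 436. At 0 interaction calls (marker sum 12), 287 genes had an unadjusted p under 0.05, and at 0 class calls (without mouse 3) 437 had. The mean share of 1.17% in Trim28 Δ/Δ mice moved to 2.72% and 0.719% with marker sums of 5 and 12, 1.93% without Six2 and Cited1, 0.684% with Wnt4 at 0 and 0.680% without tubule-marker cells (0.856% to 1.47% per mouse), and that of the controls (3.29% to 11.7%) by less than the SD of 2 mice. The difference in cells with 5 G2/M UMIs, -7.36 points, was 0 with all UMIs, -2.51 after thinning, -3.54 and -4.17 with marker sums of 12 and 5, -4.14 with Wnt4 at 0, -4.18 without Six2 and Cited1, -3.88 without tubule-marker cells and -16.7 with a tag share of 90%, and lay between -9.72 and -4.99 when a mouse was left out.

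Genes that changed sign without tubule-marker cells were Emx2 (-0.13), Eya1 (0.24), Ier3 (-1.57), Jun (-0.014), Meg3 (-0.67), Sfrp1 (-0.70), Slc12a1 (-1.27) and Wfdc2 (-0.35), Slc12a1 also with 10 cells per mouse (-0.32). With a marker sum of 5, Cdk1 (0.024), Hbb-bs (0.72) and Ttc36 (-0.35) did, with Wnt4 at 0 Ttc36 (-0.17) and Mep1a (-0.37), and after thinning Mep1a (-0.20). Interactions changed sign for Calb1 after thinning (1.52), Krt18 (-2.79), Malat1 (-0.79) and Pdzk1ip1 (-3.09) without tubule-marker cells, Mep1a without Six2 and Cited1 (-0.13) and Mki67 with a marker sum of 5 (0.23). Six3 kept its call in 15 of 16 alternatives, all but 10 cells per mouse (log2 8.84, adjusted p = 0.178 with edgeR). Other causes of these shifts were not tested. Leaving out tubule-marker cells and the limit of 20 G2/M UMIs were chosen after seeing the data. No paired analysis was possible because mice of different genotype share no replicate numbers; the classes of cells were compared within mice.

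Limits are the 2 mice per genotype, the 29 Trim28 Δ/Δ progenitors, of which 17 fall under the tubule-marker limit, and free RNA shared by all cells of the pool.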
